A study of Homo sapiens with 12 samples.

Results

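The keratins and the proteins of the cornified envelope are the building blocks of the epidermis and other epithelia, and here their genes were followed in fibroblasts that undergo oncogene-induced senescence (OIS). Protein-coding genes were taken as members if their symbol was KRT followed only by digits, or LCE or SPRR followed by a digit, together with IVL, TGM1 and FLG. This gave 81 of the 62069 genes in the table: 50 keratins, 18 late cornified envelope (LCE) genes, 10 small proline-rich (SPRR) genes and 3 others. Of the 81, 14 had enough reads to be tested, 34 had a few reads and 33 had no read in any of 12 libraries. The set was chosen by the rise of LCE1F read counts in vector/4OHT against vector cells, so the values of all members in that contrast are given as a description and nothing is read from their calls there.

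RNA-seq was performed on IMR90 ER:RAS cells, a line of human lung fibroblasts that carry oncogenic RAS fused to a hormone-binding domain of the estrogen receptor, so that 4OHT (4-hydroxytamoxifen) switches RAS on. The 4 groups of 3 libraries were vector (not induced), vector/4OHT, shXPO7_3/4OHT and shXPO7_5/4OHT. The last 2 carry different short hairpin RNAs against XPO7, which the study describes as a transporter for both nuclear export and import. Every group carries ER:RAS, was at passage 13 and was collected on day 5, and the induced groups received 100 nM 4OHT. No group has an shRNA against XPO7 without 4OHT, so the depletion of XPO7 can be read only in induced cells. The name vector follows the study, since the labels give the state of induction and the shRNA. Whether the 3 libraries within a group stem from different cultures is not stated, and a p-value here reflects their spread only, which could be technical.

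Keratins form intermediate filaments from pairs of a type I and a type II protein. Basal keratinocytes of the epidermis use KRT5 and KRT14, differentiating keratinocytes use KRT1 and KRT10, and simple epithelia use KRT8, KRT18, KRT7 and KRT19. In the outermost cells a shell of involucrin (IVL), loricrin, SPRR and LCE proteins is cross-linked by transglutaminases such as TGM1 and replaces the cell membrane. The genes for involucrin, loricrin, filaggrin (FLG), SPRR and LCE proteins lie side by side in the epidermal differentiation complex on chromosome 1.

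Library totals ran from 28534141 to 60397769 reads, so 3 reads corresponded to 0.0506 to 0.106 counts per 1000000 reads (CPM, scaled with TMM factors throughout), and this is the floor below which a gene cannot be told from absent in 1 library. Together the 81 genes took 0.01003% to 0.0142% of the reads of a library. XPO7 ran from 127 to 144 CPM in the 6 vector and vector/4OHT libraries, from 26.4 to 28.7 CPM with shXPO7_3 and from 50.8 to 54.0 CPM with shXPO7_5. The cells carried the transcripts of fibroblasts, with all 10 fibroblast markers above the filter (COL1A1 and VIM among them) and a summed level of 24444 to 28192 CPM in vector and 17159 to 18623 CPM in vector/4OHT libraries. The keratinocyte markers KRT5, KRT14 and KRT1 were at 0 in every library and TP63, the master factor of stratified epithelia, had 9 reads over the 12 libraries.

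**Figure D1:**
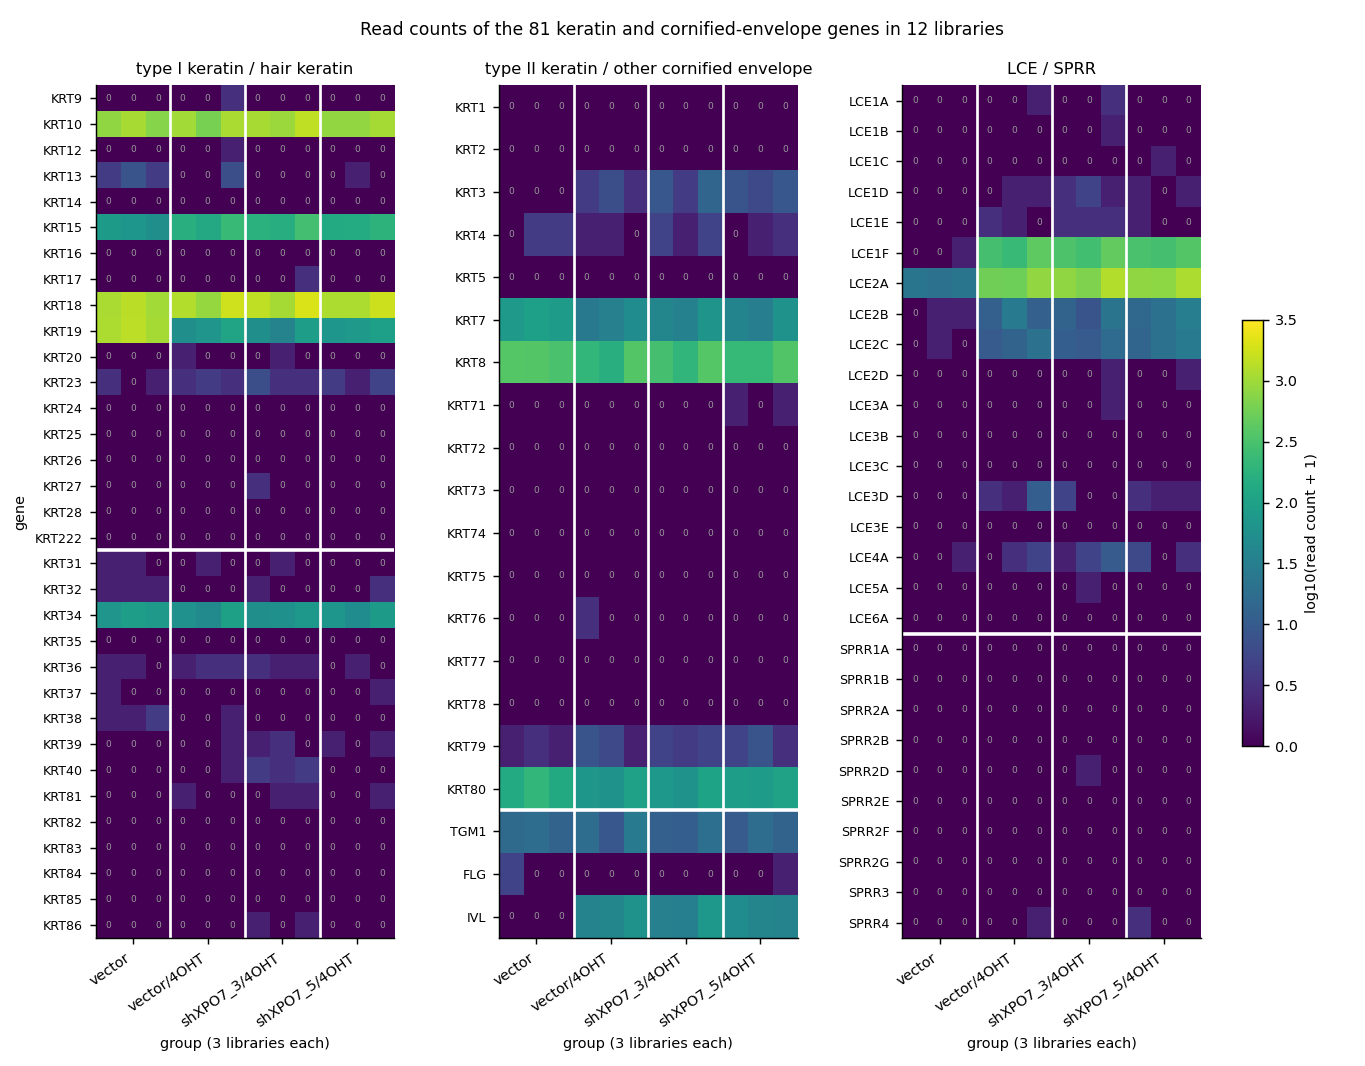
Read count of each of the 81 genes (rows) in each of the 12 libraries (columns, in 4 groups separated by white lines), coloured by log10 of the count plus 1, with a 0 printed where no read was counted. LCE1F, LCE2A, LCE2B, LCE2C and IVL are brighter in all 9 induced libraries than in the vector libraries, KRT19 is bright in the 3 vector libraries, and 33 rows are 0 throughout.

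The complete keratin pair of basal keratinocytes was missing from these cells. KRT5, KRT14, KRT1, KRT2 (the keratin of the upper epidermis) and KRT16 (the partner of the KRT6 keratins in wounded epidermis) had no read in 12 libraries. The same held for KRT24, KRT25, KRT26, KRT28, KRT222, KRT72, KRT73, KRT74, KRT75, KRT77 and KRT78, and for the hair keratins KRT35, KRT82, KRT83, KRT84 and KRT85. Among the genes of the cornified envelope, LCE3B, LCE3C, LCE3E, LCE6A, SPRR1A, SPRR1B, SPRR2A, SPRR2B, SPRR2E, SPRR2F, SPRR2G and SPRR3 were also without a read. The SPRR family, which cross-bridges the envelope, was the least detected: 8 of 10 genes had no read, and SPRR2D and SPRR4 had 1 and 3 reads in all. The 5 keratins with a letter after the number, which the rule leaves out, were hardly detected either: KRT6C and KRT33A had no read, KRT6A and KRT6B 1 read each and KRT33B 11 reads.

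A further 34 members had between 1 and 55 reads summed over the 12 libraries, with a median of 3.5, and none reached more than 13 reads in any library. Of these, 10 were seen in 1 library only and 20 had 5 reads or fewer in total. The highest total was that of KRT3, a type II keratin known from the cornea, which had no read in the vector libraries, 11 in vector/4OHT, 24 in shXPO7_3/4OHT and 20 in shXPO7_5/4OHT. When the 34 genes were fitted without a filter, 1 was called higher and 1 lower with shXPO7_3 against vector. With shXPO7_5 1 was called higher and 0 lower. Of all genes in that fit, 24.6% and 25.5% were called. The gene called higher was KRT3 with both shRNAs. Having no vector read it could differ only in that direction, so nothing is read from its call. KRT13, the type I keratin of mucosal epithelia, had 13 reads in vector and 6 in vector/4OHT, all of the 6 in library B. It had 0 reads in shXPO7_3/4OHT and 1 in shXPO7_5/4OHT, and was called lower with shXPO7_3 without a filter. Having no read there KRT13 could differ only in that direction, so nothing is read from its call either. It is named because it was called, after its values were seen. KRT79 had 41 reads, LCE4A and KRT23 28 each and LCE3D 21. LCE3D had no read in vector and 13 in vector/4OHT, 10 of them in library B, and 4 in each shXPO7 group, which in shXPO7_3/4OHT all came from library T. FLG, whose product bundles keratin filaments in the cornified layer, had 5 reads, 4 of them in 1 vector library.

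The 14 genes above the filter were LCE1F, LCE2A, LCE2B, LCE2C, IVL and TGM1 of the cornified envelope, the type I keratins KRT10, KRT15, KRT18 and KRT19, the type II keratins KRT7, KRT8 and KRT80, and the hair keratin KRT34. LCE1F, LCE2B, LCE2C and IVL passed through their induced libraries alone, so that they had to differ from vector, and for these 4 the ratios to vector are given without a test. In the vector/4OHT against vector contrast 10 of the 14 were called by edgeR, 6 higher and 4 lower, where 50.9% of all genes tested were called, 24.8% higher and 26.1% lower. Nothing is read from this count, because the contrast was used to choose the set.

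The LCE genes encode short, cysteine-rich proteins that are laid down late in the envelope. LCE1F (ENSG00000240386) lies at chr1:152776372-152776728 and LCE2A (ENSG00000187173) at chr1:152698364-152699442, both on the plus strand of GRCh38 in GENCODE release 29. IVL (ENSG00000163207) lies at chr1:152908545-152911886 on the same strand. The 250 bases before the RefSeq start of LCE1F (chr1:152774890-152775139), LCE2A (chr1:152698095-152698344), LCE2C (chr1:152675029-152675278) and IVL (chr1:152908296-152908545) are shown as 4 of the genes detected in induced cells, and those of LCE2D (chr1:152663130-152663379) because it is a close relative of LCE2C and had 2 reads in all. They were taken from RefSeq on GRCh38.p14, all are on the plus strand, and capitals mark the TATA box TATAAA, the AP-1 motif TGANTCA and the C/EBP-type motif TTGCNNAA, the last 2 on either strand.
LCE1F: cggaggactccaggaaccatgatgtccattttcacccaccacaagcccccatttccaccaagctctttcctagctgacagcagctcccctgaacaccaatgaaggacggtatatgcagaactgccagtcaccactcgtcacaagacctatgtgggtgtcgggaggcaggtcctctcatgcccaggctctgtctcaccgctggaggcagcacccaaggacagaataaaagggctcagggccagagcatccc
LCE2A: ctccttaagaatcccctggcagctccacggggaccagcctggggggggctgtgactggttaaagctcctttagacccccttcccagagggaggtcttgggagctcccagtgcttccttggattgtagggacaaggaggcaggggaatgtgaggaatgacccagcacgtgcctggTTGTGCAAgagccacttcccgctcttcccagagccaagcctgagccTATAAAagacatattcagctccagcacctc
LCE2C: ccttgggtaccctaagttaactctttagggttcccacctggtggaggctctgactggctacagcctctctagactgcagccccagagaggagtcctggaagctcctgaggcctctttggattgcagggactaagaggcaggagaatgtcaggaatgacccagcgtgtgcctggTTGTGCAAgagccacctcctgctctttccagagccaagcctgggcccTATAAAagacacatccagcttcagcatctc
LCE2D: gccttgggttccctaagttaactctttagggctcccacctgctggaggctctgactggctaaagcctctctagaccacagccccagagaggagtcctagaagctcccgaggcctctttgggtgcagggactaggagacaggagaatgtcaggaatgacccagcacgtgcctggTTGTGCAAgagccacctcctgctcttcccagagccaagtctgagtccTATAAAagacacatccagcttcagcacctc
IVL: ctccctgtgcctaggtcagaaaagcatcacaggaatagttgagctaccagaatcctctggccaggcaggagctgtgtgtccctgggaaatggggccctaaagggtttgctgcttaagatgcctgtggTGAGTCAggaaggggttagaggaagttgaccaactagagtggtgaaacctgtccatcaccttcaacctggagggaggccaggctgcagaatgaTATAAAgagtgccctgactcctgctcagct

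The windows of LCE2A, LCE2C, LCE2D and IVL hold TATAAA 30 bases before the start, and that of LCE1F holds none of the 3 motifs. LCE2A has the C/EBP letters 76 bases before the start and LCE2C and LCE2D have them at 77 bases, all as TTGTGCAA, and IVL has TGAGTCA at 123 bases. The window of LCE2B, not shown, holds TATAAA and TTGTGCAA farther out, 46 and 93 bases before the start. Of 35116 RefSeq promoter windows of this length, 6.80% hold TATAAA on the gene strand, 6.57% hold TGANTCA and 9.05% hold TTGCNNAA. Windows were matched for 59 of the 81 genes, of which 33 hold TATAAA, 8 TGANTCA and 8 TTGCNNAA. The E-box CAGGTG, of the type of the transcription factor TCF3, was also searched on either strand and is not marked. It is held by 17.5% of all windows and by 16 of the 59. It lies 232, 216 and 215 bases before the start of LCE2B, LCE2C and LCE2D, and is missing from the windows of LCE1F, LCE2A and IVL. LCE2D carries TATAAA and TTGTGCAA at the same positions as LCE2C. LCE2D had 1 read in shXPO7_3/4OHT and 1 in shXPO7_5/4OHT, while LCE2C had 35 and 59. Whether any of these motifs bears on the levels was not tested.

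LCE1F was nearly absent without induction and present in every induced library. It had 0, 0 and 1 read in the vector libraries, 297, 237 and 430 reads in vector/4OHT, 334, 277 and 462 in shXPO7_3/4OHT and 316, 295 and 368 in shXPO7_5/4OHT. All 9 induced libraries lay between 7.79 and 10.6 CPM, and the only vector library with a read lay at 0.0283 CPM. The ratio of vector/4OHT to vector was 917 (95% interval 164 to 36264), which is a description. In the libraries that the choice of LCE1F did not use, the rise was 906-fold (162 to 35812) with shXPO7_3 and 1071-fold (192 to 42364) with shXPO7_5. The intervals cover counting error only and are wide because of the 1 vector read, and both contrasts use the same vector libraries that served to choose the gene.

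LCE2A was the most abundant LCE gene after induction and the only one with a clear level without it. In vector libraries it had 22, 19 and 22 reads, or 0.680, 0.462 and 0.623 CPM. It reached 15.1, 18.6 and 17.3 CPM in vector/4OHT, 22.4, 20.05 and 21.2 CPM in shXPO7_3/4OHT and 28.2, 24.6 and 31.6 CPM in shXPO7_5/4OHT. Not only were the induced libraries all above vector, but the 3 induced groups did not overlap one another. Against vector the log2 fold change was 5.18 (SE 0.16) with shXPO7_3 and 5.59 (SE 0.16) with shXPO7_5, with adjusted p = 1.28e-10 and 7.98e-11 by edgeR, and in vector/4OHT it was 4.86.

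IVL, the scaffold on which the envelope is built, had no read in the vector libraries. It had 36, 39 and 60 reads in vector/4OHT, 32, 31 and 72 in shXPO7_3/4OHT and 50, 38 and 36 in shXPO7_5/4OHT. Every induced library thus held IVL, at 0.878 to 1.68 CPM. Taking 3 reads over the vector group as the floor, IVL was at least 38.0-fold higher with shXPO7_3 and at least 45.2-fold higher with shXPO7_5, and in vector/4OHT at least 42.8-fold higher.

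LCE2B and LCE2C followed at a far lower level. LCE2B had 2 reads in the vector group, 49 in vector/4OHT, 40 in shXPO7_3/4OHT and 63 in shXPO7_5/4OHT, and LCE2C had 1, 41, 35 and 59. Against vector LCE2B was 16.9-fold (4.38 to 144) and 34.5-fold (9.16 to 291) higher with shXPO7_3 and shXPO7_5, and LCE2C 29.5-fold (4.97 to 1200) and 64.6-fold (11.1 to 2593). These paralogs are alike: 23.6% of the stretches of 50 bases in the LCE2B transcript and 28.3% of those in LCE2C occur in another gene, mostly in each other or in LCE2D, so their reads may be exchanged. The share was 5.19% for LCE1F, with LCE1E and LCE1D, and 0 for LCE2A and IVL. LCE1E and LCE1D themselves had 10 and 11 reads in all.

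**Figure D2:**
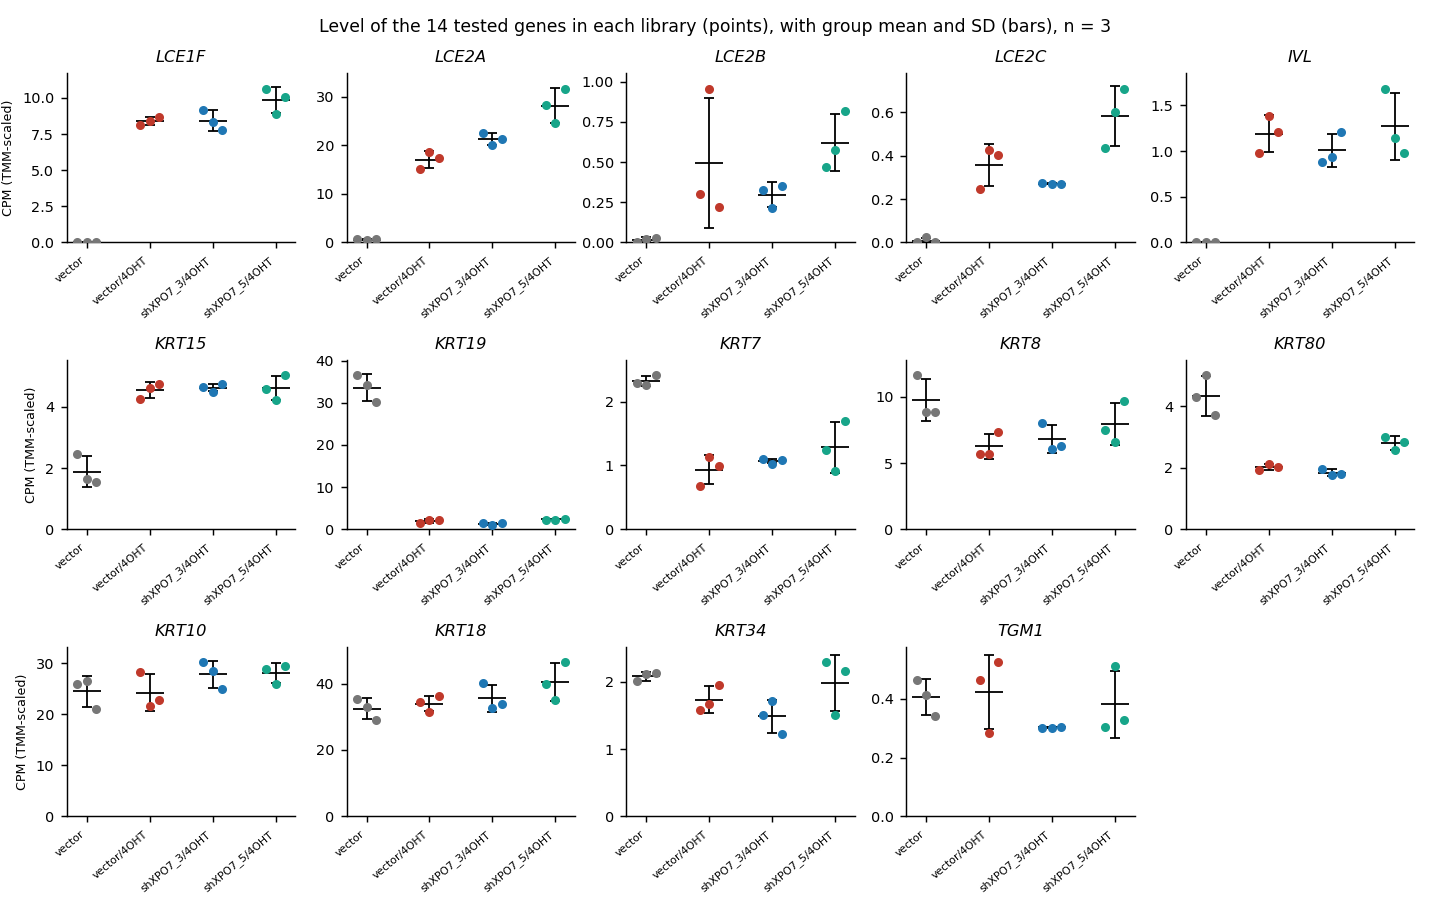
CPM (TMM-scaled, linear axis from 0) of the 14 tested genes, 1 point per library in 4 groups, with the mean and SD of 3 libraries as bars. LCE1F, LCE2A and IVL are near 0 in vector and high in each induced group, KRT19 does the opposite, and the groups overlap for KRT10 and KRT18.

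Detection was uneven along this part of the chromosome. Of 43 protein-coding genes between TCHHL1 and LORICRIN, 17 had no read in 12 libraries and 5 had at least 100 reads summed over the induced libraries, which were LCE2C, LCE2B, LCE2A, LCE1F and IVL. LCE2C, LCE2B and LCE2A are adjacent to one another, whereas LCE1F and IVL lie among genes with few or no reads. Between LCE2A and LCE1F lie 3 genes, LCE4A, C1orf68 and KPRP, with 28, 2 and 17 reads in all. On the other side of LCE1F, LCE1E and LCE1D had 3 and 2 reads in vector/4OHT where LCE1F had 964. None of the genes between LCE1F and IVL reached the filter. LORICRIN, the main protein of the envelope, had 4 reads, all of them in shXPO7 libraries.

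**Figure D3:**
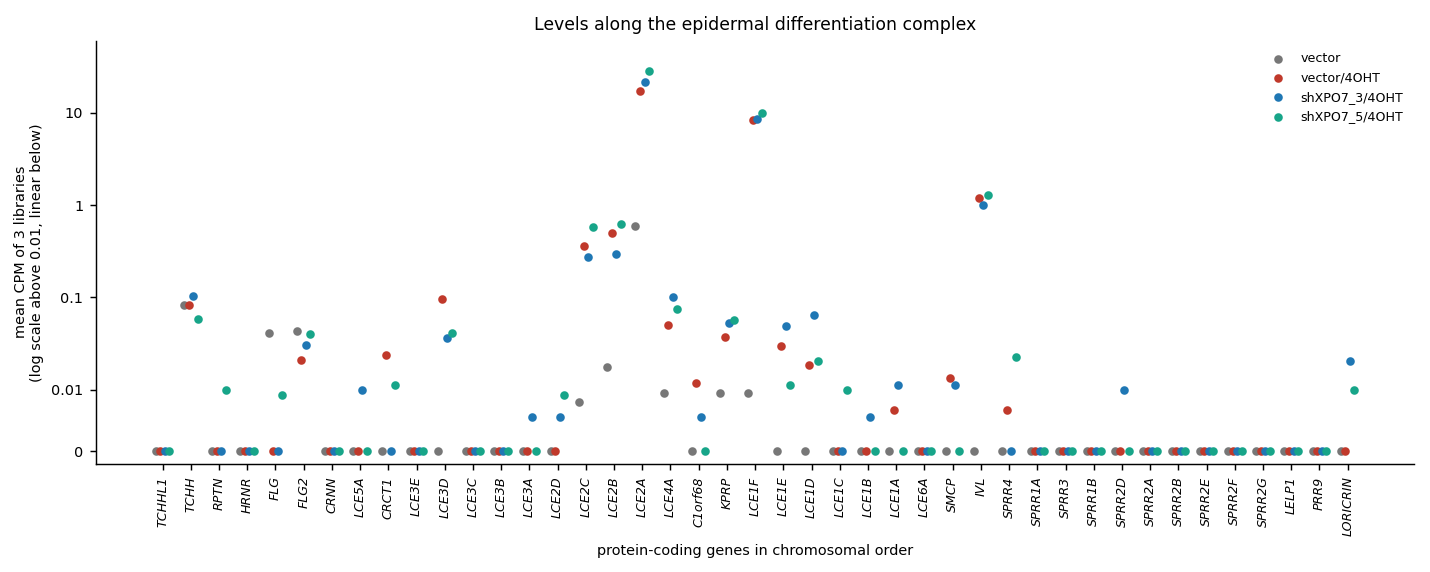
Mean CPM of 3 libraries (log scale above 0.01, linear below) for 43 protein-coding genes of the epidermal differentiation complex in chromosomal order, with 1 colour per group. The induced groups rise above 1 CPM at LCE2A, LCE1F and IVL, and most other genes lie below 0.1 CPM in every group.

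Per kilobase of the longest transcript, LCE2A was the highest of the 14 genes in each induced group, at 28.8 ± 2.99 CPM per kb in vector/4OHT, 35.9 ± 2.005 in shXPO7_3/4OHT and 47.5 ± 5.96 in shXPO7_5/4OHT (SD, n = 3), against 0.994 ± 0.191 in vector. LCE1F came next with 23.5 ± 0.781, 23.6 ± 1.94 and 27.6 ± 2.47 CPM per kb. The LCE1F transcript in GENCODE release 29 is only 357 bases long, a coding length without untranslated parts, so its level per kb would be lower with a longer model. In vector cells the order was led by KRT19 (24.2 ± 2.25 CPM per kb), KRT18 (15.5 ± 1.51) and KRT10 (11.5 ± 1.42).

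KRT19, the smallest type I keratin and a mark of simple epithelia, fell to a small remainder. It stood at 36.5, 34.1 and 30.3 CPM in vector, 1.503, 2.30 and 2.22 in vector/4OHT, 1.51, 1.09 and 1.48 in shXPO7_3/4OHT and 2.32, 2.33 and 2.54 in shXPO7_5/4OHT. Every vector library was thus far above every induced one. Relative to vector, KRT19 was lower by a factor of 24.4 with shXPO7_3 (log2 fold change -4.61, SE 0.16, adjusted p = 3.29e-10, edgeR) and of 13.99 with shXPO7_5 (-3.81, SE 0.15, adjusted p = 1.30e-09), and by 16.7 in vector/4OHT. Its neighbour KRT15, a type I keratin of basal cells, did the reverse. It had 2.47, 1.65 and 1.53 CPM in vector and between 4.23 and 5.02 CPM in all 9 induced libraries, and was 2.47-fold higher with shXPO7_3 and 2.46-fold with shXPO7_5 (adjusted p = 1.91e-05 and 2.28e-05, edgeR).

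The type II keratins moved down by smaller factors. KRT7, a partner of KRT19 in simple epithelia, had 2.29, 2.26 and 2.41 CPM in vector and 0.683 to 1.69 CPM in the induced libraries, and was lower by a factor of 2.16 with shXPO7_3 and 1.797 with shXPO7_5 (adjusted p = 0.000842 and 0.00542, edgeR). KRT80, a widely expressed keratin of differentiating epithelia, had 4.29, 5.00 and 3.71 CPM in vector and 1.78 to 2.998 CPM in the induced libraries, and was lower by a factor of 2.35 and 1.55 (adjusted p = 6.19e-06 and 0.00118, edgeR). For both genes no induced library reached a vector library.

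KRT8 and KRT18 are the keratin pair of simple epithelia. KRT8 had 11.6, 8.87 and 8.84 CPM in vector, 5.71, 5.71 and 7.36 in vector/4OHT, 8.01, 6.07 and 6.30 in shXPO7_3/4OHT and 7.51, 6.61 and 9.69 in shXPO7_5/4OHT. The fall with shXPO7_3 passed (log2 fold change -0.52, adjusted p = 0.0235, edgeR), and that with shXPO7_5 did not (-0.30, 95% interval -0.67 to 0.08), with 1 library inside the vector range. The call with shXPO7_3 was lost without vector T (adjusted p = 0.0991), shXPO7_3/4OHT A (0.0862) or shXPO7_3/4OHT B (0.0737), and that with shXPO7_5 was gained without shXPO7_5/4OHT B (-0.47, adjusted p = 0.0424), with a replicate block (adjusted p = 0.0430) and with an offset for GC content and length (0.0334). KRT8 has 49 pseudogenes in the table which together held 36.9% of the reads given to KRT8 or to them, so its count is uncertain. KRT18 ran from 29.1 to 35.3 CPM in vector, 31.4 to 36.1 in vector/4OHT, 32.7 to 40.3 in shXPO7_3/4OHT and 34.9 to 46.4 in shXPO7_5/4OHT. Its log2 fold change was 0.14 with shXPO7_3 (95% interval -0.12 to 0.39), and 0.32 with shXPO7_5 (0.06 to 0.58, adjusted p = 0.0404, edgeR), where the groups overlapped. That call was lost without vector A (adjusted p = 0.0830), vector C (0.139), shXPO7_5/4OHT T (0.0720) or shXPO7_5/4OHT B (0.178), with upper-quartile factors (0.1196), with the filter at 1 CPM (0.0610), with only the 2 groups (0.0617) and with the block (0.152). With the offset for GC and length KRT18 was called with shXPO7_3 as well (0.23, adjusted p = 0.00248).

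KRT10, the suprabasal keratin whose partner KRT1 was absent, stood at 21.0 to 26.5 CPM in vector, 21.6 to 28.3 in vector/4OHT, 24.9 to 30.1 in shXPO7_3/4OHT and 25.8 to 29.5 in shXPO7_5/4OHT. The log2 fold change against vector was 0.18 (-0.09 to 0.45) with shXPO7_3 and 0.20 (-0.07 to 0.47) with shXPO7_5, and neither passed. With the offset for GC and length the change with shXPO7_3 was called (0.25, adjusted p = 0.0333). KRT10 overlaps KRT10-AS1 on the other strand, and since the strand setting of the counting is not given their reads cannot be told apart. TGM1, the transglutaminase of the envelope, was at 0.284 to 0.525 CPM in all libraries, with intervals of -1.06 to 0.22 and -0.73 to 0.56 around its changes against vector. KRT34, a hair keratin, had 2.01, 2.11 and 2.13 CPM in vector, 1.59, 1.67 and 1.96 in vector/4OHT, 1.51, 1.72 and 1.23 in shXPO7_3/4OHT and 2.29, 1.51 and 2.16 in shXPO7_5/4OHT. It was lower with shXPO7_3 (log2 fold change -0.50, adjusted p = 0.0328, edgeR), a call lost without vector A (adjusted p = 0.0696), vector C (0.0727) or shXPO7_3/4OHT B (0.132), without a filter (0.0544), with the block (0.0884) and with DESeq2 (0.0720), and its change with shXPO7_5 was -0.07 (-0.46 to 0.31).

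Leaving out the 4 genes that passed only through induced libraries, edgeR called 7 of the other 10 with shXPO7_3 against vector, 2 higher and 5 lower, where 50.6% of all genes tested were called, 24.5% higher and 26.2% lower. With shXPO7_5 against vector it called 6 of the 10, 3 higher and 3 lower, beside 52.3%, or 25.3% higher and 27.0% lower. Among the 10, 8 did not overlap between the groups with shXPO7_3, where 55.4% of all genes did not, and 5 with shXPO7_5, beside 53.9%. The median log2 fold change of the 10 was -0.46 and -0.08, beside -0.01 and -0.03 over all genes tested. The 2 contrasts share the 3 vector libraries.

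**Figure D4:**
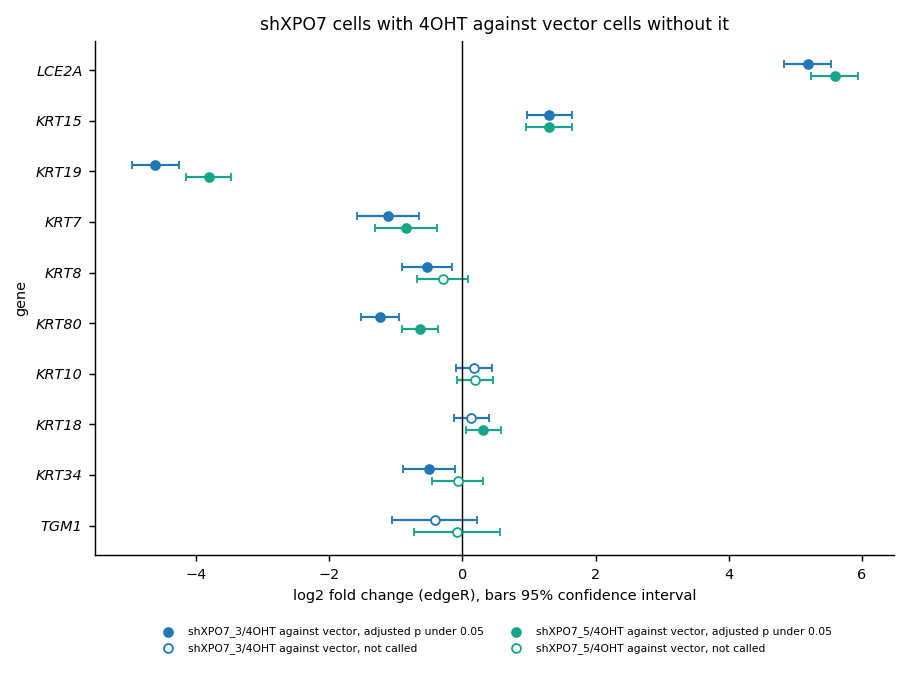
Log2 fold change (x axis) with 95% confidence interval of 10 genes (y axis) in shXPO7_3/4OHT (blue) and shXPO7_5/4OHT (green) against the same 3 vector libraries, filled where the adjusted p of edgeR was under 0.05, without the 4 genes that passed the filter only through induced libraries. LCE2A and KRT15 lie to the right and KRT19, KRT7 and KRT80 to the left for both shRNAs.

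To ask whether depletion of XPO7 moved these genes in induced cells, each shRNA was compared with vector/4OHT, the libraries in which LCE1F had been chosen. With shXPO7_3, 0 of the 14 genes were called by edgeR, beside 0.124% of all genes. An unadjusted p under 0.05 was found for 2, LCE2A and KRT19, beside 6.41% of all genes. DESeq2 called 0 of the 14, beside 82 of 15284 genes. LCE1F differed by a log2 fold change of 0.00 (95% interval -0.25 to 0.26, adjusted p = 0.999), IVL by -0.21 (-0.76 to 0.33) and KRT15 by 0.03 (-0.29 to 0.34). LCE2A was 0.32 higher on the log2 scale (0.07 to 0.57, adjusted p = 0.564), with all 3 shXPO7_3/4OHT libraries above the 3 of vector/4OHT. It was the only one of the 14 that did not overlap, beside 7.46% of all genes that lay wholly higher. KRT19 was 0.54 lower (-0.93 to -0.16, adjusted p = 0.447), with a shared range.

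With shXPO7_5, LCE2A was called, beside 0.589% of all genes. Its log2 fold change was 0.72 (95% interval 0.47 to 0.98, adjusted p = 0.0192, edgeR), or 1.65-fold higher in 3 of 3 libraries. The call was lost without vector/4OHT T (adjusted p = 0.115), A (0.0767) or B (0.0918) and without shXPO7_5/4OHT T (0.0981) or B (0.0730), while the log2 fold change stayed between 0.63 and 0.82. Without shXPO7_5/4OHT A, KRT7 (0.67, adjusted p = 0.0462) and KRT80 (0.52, adjusted p = 0.0388) were called as well, in a fit that called 3634 of 15790 genes, or 23.0%. LCE1F was 0.23 higher (-0.03 to 0.49, adjusted p = 0.253), with all 3 shXPO7_5/4OHT libraries above vector/4OHT, and IVL differed by 0.09 (-0.46 to 0.64). LCE2A, LCE1F, LCE2C, KRT80 and KRT19 did not overlap and were all higher, beside 14.2% of all genes. In both shXPO7 groups the libraries differ in base composition. For shXPO7_5/4OHT T, A and B, the Spearman correlation of GC content with level relative to vector/4OHT was 0.60, 0.11 and 0.77. For shXPO7_3/4OHT T, A and B it was 0.57, -0.33 and -0.25, with both signs in 1 group. Genes of 1 library do not count as separate replicates, so no p-value is given for these correlations. Comparisons of shXPO7_3 with vector/4OHT and between the shRNAs carry this limit as well. With an offset for GC and length, the log2 fold change of LCE2A with shXPO7_5 against vector/4OHT was 0.58 (adjusted p = 0.00488, edgeR).

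**Figure D5:**
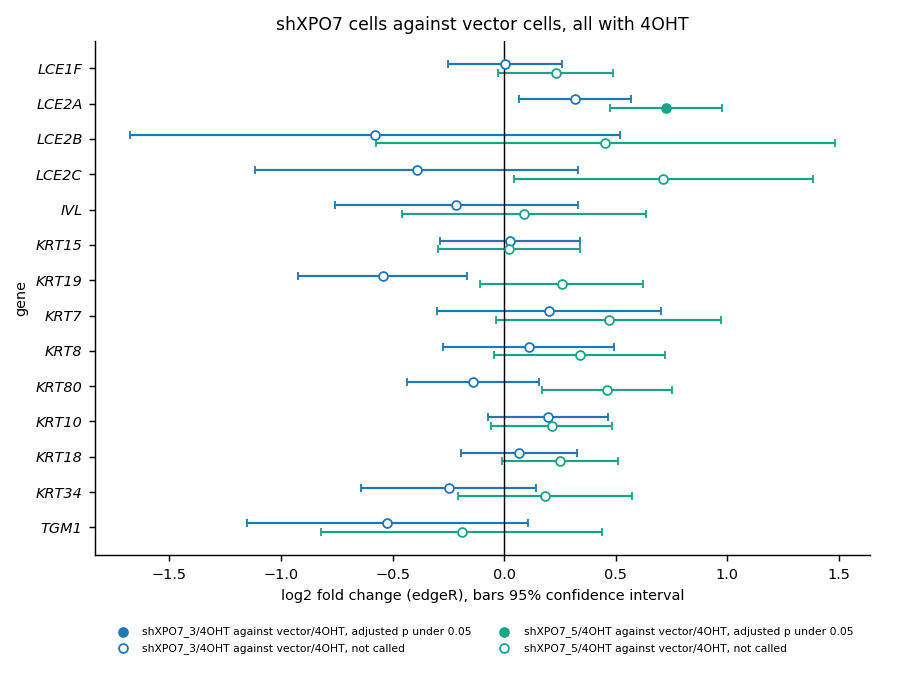
Log2 fold change (x axis) with 95% confidence interval of the 14 genes (y axis) in shXPO7_3/4OHT (blue) and shXPO7_5/4OHT (green) against the same 3 vector/4OHT libraries. LCE2A with shXPO7_5 is the only filled point (adjusted p of edgeR under 0.05), at 0.72.

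Between the shRNAs, edgeR called 0 of the 14 genes, beside 0.0131% of all genes. Of the 14, 5 had an unadjusted p under 0.05, where 11.9% of all genes did, all higher with shXPO7_5: LCE2C by 1.11 on the log2 scale (95% interval 0.42 to 1.79), LCE2A by 0.41 (0.16 to 0.66), KRT80 by 0.60 (0.31 to 0.89), KRT34 by 0.43 (0.04 to 0.83) and KRT19 by 0.80 (SE 0.17). DESeq2 called 1, KRT19 (adjusted p = 0.0353), beside 27 of 15284 genes. For LCE1F the difference was 0.23 (-0.03 to 0.48).

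Other genes of the epidermal program were counted over lists drawn up by known function, and each count is to be read beside the share of all genes called against vector. With shXPO7_3 that was 50.6%, or 24.5% higher and 26.2% lower. With shXPO7_5 it was 52.3%, or 25.3% higher and 27.0% lower. Of 36 further genes of the cornified envelope and late epidermis, 12 had no read and 6 were tested. With each shRNA against vector, TGM2 and ALOXE3 were higher, and PPL, SBSN and DMKN lower. ALOXE3 had 12 reads in the vector group and passed the filter through its induced libraries alone. It had to differ from vector, so nothing is read from its call. TGM2, a transglutaminase made in many tissues, went from 560 ± 47.8 CPM in vector to 1298 ± 117 with shXPO7_3. PPL, the plakin of the envelope and desmosome, went from 2.19 ± 0.369 to 0.317 ± 0.014 (SD, n = 3). In vector/4OHT, which has no shRNA against XPO7, TGM2 stood at 1310 ± 30.6 and PPL at 0.195 ± 0.056 CPM. Of 14 desmosome genes 8 were tested, and DSP and JUP were higher and PKP1, PKP3, PKP4, PERP and DSG2 lower with each shRNA. Of 9 genes of basal keratinocytes and hemidesmosomes 8 were tested, 0 were higher and 6 lower with shXPO7_3, and 1 was higher and 6 lower with shXPO7_5.

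Among 16 transcription factors of the epidermis, 9 were tested. Against vector 4 were higher and 3 lower with shXPO7_3, beside 50.6% of all genes called. With shXPO7_5 3 were higher and 3 lower, beside 52.3%. PRDM1, a repressor at work in late epidermal differentiation, rose from 8.13 ± 0.652 CPM in vector to 109 ± 3.42 with shXPO7_3 and 103 ± 6.45 with shXPO7_5. EHF, an ETS factor of epithelia, rose from 0.397 ± 0.13 to 6.95 ± 0.971 and 6.68 ± 0.851 CPM, while KLF4, needed for the skin barrier, fell from 17.1 ± 1.03 to 2.22 ± 0.41 and 2.096 ± 0.27 CPM, each with n = 3 and SD. In vector/4OHT, without an shRNA against XPO7, PRDM1 stood at 87.9 ± 1.72, EHF at 8.62 ± 1.22 and KLF4 at 2.86 ± 0.469 CPM. Against vector/4OHT, 0 genes of the envelope, desmosome, basal keratinocyte or transcription factor lists were called with either shRNA. Of all genes, 0.124% and 0.589% were called there. OVOL2 had no read and ZNF750 and OVOL1 had 2 reads each.

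Markers of other cells were read beside these results. The 7 markers of simple epithelium summed to 6.53 to 7.11 CPM in vector and 1.94 to 2.73 CPM in induced libraries. Of the 3 tested, CLDN4 was lower against vector with both shRNAs and EPCAM with shXPO7_5, and none was called against vector/4OHT. The sum was mostly CLDN4, with a mean of 5.60 CPM in vector and 1.34 and 1.61 CPM with shXPO7_3 and shXPO7_5, whereas CDH1 had 0.0857 CPM in vector and 0.123 and 0.0970 CPM, and CLDN7 0.214 CPM in vector and 0.196 and 0.273 CPM. The part of such cells in the falls of KRT19 and KRT7 was not tested. The 11 keratinocyte markers, 6 of them members of the set, summed to 22.9 to 27.9 CPM in vector and 23.6 to 31.6 CPM in induced libraries, nearly all of it KRT10. Of the 3 melanocyte markers TYR had no read and MLANA 9, while PMEL was higher against vector with each shRNA. Of the 3 endothelial markers PECAM1 and CDH5 had no read, and VWF was higher against vector with each shRNA. Neither PMEL nor VWF was called against vector/4OHT. The 3 leukocyte markers summed to at most 0.198 CPM. In bulk RNA, fewer cells with a transcript and less transcript per cell cannot be told apart.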

How the data were processed

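The deposited data were RNA-seq read counts per gene for 12 libraries in 4 groups, which the authors made without normalization. By the submitters' processing notes, tools were CASAVA 1.8.4, TopHat2 2.0.11 with featureCounts 1.18.0, on build GRCh37 (hg19). Annotation, strandedness and handling of multiply matching reads: not given in the sources used here. Genes were matched by Ensembl identifier to symbols and to GENCODE release 29 (GRCh38), from which the coordinates, the longest transcripts and their GC content come. The 92 ERCC entries were 0 and were left out.

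The tests were run with edgeR 4.0.16 (R 4.3.3, limma 3.58.1). Of all genes, 15284 passed filterByExpr (minimum count 10). TMM factors scaled the libraries, and 1 quasi-likelihood fit over the 12 libraries had the group as its only term. Benjamini-Hochberg adjustment ran over the whole set of tested genes, and calls were made at 0.05. With 3 libraries against 3, an exact permutation test of a single gene cannot go below 0.1 and was not used. Ratios against a group with 1 to 3 reads were given with exact 95% counting intervals, and against 0 with a floor of 3 reads over the group.

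Every member was accounted for. Those above the filter were named, as were the 5 below it with the most reads, and up to 4 genes of each list with the highest level among called genes or at or near 0. Genes next to LCE1F were named where they had reads. The members and lists were chosen with earlier results of these data known. As alternatives the scaling was changed to RLE or to the upper quartile, the filter to 1 read or to 1 CPM in at least 6 libraries, and the test to DESeq2 1.42.0. A replicate block, a fit of the compared groups alone, an offset for GC and length, and omission of each library in turn were also run. Every pair of libraries from the same group showed differences beyond counting noise, with 4.57 to 61.7 as chi-square for each gene, and none was treated as a repeat.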

Additional observations from a re-analysis of the deposited data

How the results depend on the processing

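Under 20 alternatives, counting each left-out library, LCE2A and KRT15 stayed called higher against vector and KRT19, KRT7 and KRT80 called lower for both shRNAs wherever they were tested. Counted over all 14 tested genes, members called with shXPO7_5 against vector fell from 10 to 6 when 1 CPM in at least 6 libraries was required, a filter that tests fewer of the 14 genes. That fit called 6824 of 12483 genes, where the main fit called 7999 of 15284. The 10 include LCE1F, LCE2B, LCE2C and IVL, which had to differ from vector. Members called with shXPO7_5 against vector/4OHT went from 1 to 0 with only the 2 groups compared, where 10 genes of all were called, and ranged from 0 to 3 when 1 library was left out, with 2 genes of all called without vector/4OHT T or A and 3634 without shXPO7_5/4OHT A. Between the shRNAs DESeq2 called 1 and edgeR 0, beside 27 and 2 of 15284 genes. LCE1F with shXPO7_3 against vector/4OHT turned from 0.0041 to -0.0046 without a filter and -0.011 with the offset for GC and length, and ran from -0.065 to 0.060 with 1 library left out. The cause of these changes was not tested.

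Other log2 fold changes that turned sign were uncalled before and after. With that offset, IVL with shXPO7_5 against vector/4OHT was -0.080, KRT15 -0.12, KRT10 between the shRNAs -0.057, and KRT10 in vector/4OHT against vector 0.065. Upper-quartile factors gave 0.044 for KRT15 between the shRNAs and -0.030 for KRT18 in vector/4OHT against vector, and shift the median of all genes there by about -0.10. The replicate block gave -0.047 for KRT18 and -0.027 for TGM1 in that contrast. With 1 library left out, the lowest and highest log2 fold changes in vector/4OHT against vector were -0.14 and 0.063 for KRT10, -0.00065 and 0.14 for KRT18, and -0.099 and 0.30 for TGM1. With shXPO7_3 against vector/4OHT they were -0.017 and 0.061 for KRT15, -0.036 and 0.12 for KRT18, -0.030 and 0.25 for KRT8, and -0.996 and 0.24 for LCE2B. With shXPO7_5 against vector/4OHT they were -0.16 and 0.25 for IVL, -0.045 and 0.082 for KRT15, and -0.46 and 0.0074 for TGM1. With shXPO7_5 against vector they were -0.17 and 0.099 for KRT34 and -0.35 and 0.053 for TGM1, and between the shRNAs -0.057 and 0.084 for KRT10 and -0.067 and 0.055 for KRT15.

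The letters of the labels gave 15 pairs of libraries with correlations of -0.23 to 0.59, of which 8 were over 0.1. These values do not settle whether the letters pair the libraries, and their meaning is not given. The main fit did not use the letters. With the replicate block 10 of all 14 members were called with shXPO7_3 and 10 with shXPO7_5 against vector, beside 7875 and 7330 of 15284 genes. The 14 include LCE1F, LCE2B, LCE2C and IVL, which had to differ from vector. Against vector/4OHT 0 and 1 were called, beside 13 and 149 of all genes, and 0 between the shRNAs, beside 3. The block lost the calls of KRT18 with shXPO7_5 and of KRT34 with shXPO7_3 against vector, and gained that of KRT8 with shXPO7_5. Depth limits the folds of LCE1F, LCE2B, LCE2C and IVL against vector, which rest on 0 to 2 reads in the vector group, and 67 members could not be tested.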
